A study of Rattus norvegicus with 3 samples.

Results

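The genes described here carry the names of the machinery that moves proteins and membrane between the endoplasmic reticulum (ER), the Golgi, endosomes and the cell surface. They were chosen by symbol alone: every gene of the array whose single annotated symbol starts with Rab, Vps, Snx, Stx, Sec, Vamp or Snap followed by a digit, with Gosr, Golph or Golg, or with Cop followed by a, b, e, g or z. This rule took 188 of 14218 genes. Where a gene had several probe sets, the brightest by its mean stood for it.

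Kidneys of male Wistar rats (370 to 508 g) were given 20 min of warm ischaemia, 17 h of cold storage in University of Wisconsin solution and then reperfusion, joined to a living recipient's femoral artery, for about 5 h 43 min. Recipients were infused with heparin (100 U per ml per h), with peptide 2, based on the part of the chemokine CCL5 that binds heparin (0.5 mg per ml), or with normal saline as the control (1 ml per h). The labels also call the treatments a bolus, and heparin served no group as a routine anticoagulant. All groups shared the ischaemia, the storage and the reperfusion, so no array shows an uninjured kidney. From 7 recipients per group the 3 kidney RNAs of best quality were mixed in equal amounts, and each pool was read on 1 Affymetrix array, which gives 3 arrays and no replicate. The study asked whether the treatments had anti-inflammatory effects. No test of any difference is possible, and every difference below is one between 2 pools, with no replicate check and no standard error.

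As background, new secretory proteins enter the ER through the Sec61 channel and leave it in vesicles coated by COPII. COPI-coated vesicles carry cargo back from the Golgi and between its cisternae. Rab GTPases mark each membrane and recruit tethers such as the golgins, and SNARE proteins then fuse the vesicle with its target. Sorting nexins and Vps complexes return receptors from endosomes, and in the proximal tubule this cycle keeps the protein-uptake receptors at the brush border.

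Golph3, a protein of the Golgi, was the member furthest from control, lower in the heparin pool. Gosr1 was higher there by the probe set that stands for it, but not by its 2 others. Golph3 binds the Golgi lipid phosphatidylinositol 4-phosphate and helps to retain glycosyltransferases there, and Gosr1 (GS28) is a SNARE of ER-to-Golgi and intra-Golgi traffic. The 250 bases before their RefSeq starts (build GRCr8, 5′ to 3′ on the strand of the gene) are shown because these are the members counted at 2-fold or more. The Golph3 stretch is chr2:63074827-63075076 on the plus strand and the Gosr1 stretch chr10:62105316-62105565 on the minus strand.
Golph3: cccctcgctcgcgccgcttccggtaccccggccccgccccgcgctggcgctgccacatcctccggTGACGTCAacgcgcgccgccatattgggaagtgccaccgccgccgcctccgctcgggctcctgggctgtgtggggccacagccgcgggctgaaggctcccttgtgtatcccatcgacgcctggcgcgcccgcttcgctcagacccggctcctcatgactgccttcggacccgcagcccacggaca
Gosr1: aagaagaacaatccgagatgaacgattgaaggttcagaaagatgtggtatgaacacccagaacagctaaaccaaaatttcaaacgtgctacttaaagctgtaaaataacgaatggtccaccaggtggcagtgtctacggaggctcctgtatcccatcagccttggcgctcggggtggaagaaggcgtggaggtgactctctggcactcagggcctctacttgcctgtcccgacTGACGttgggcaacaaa
Capitals mark the cAMP response element TGACGTCA and its core TGACG, the letters bound by CREB and ATF factors. Golph3 holds the full element, which starts 185 bases before the transcript start, and Gosr1 holds only the core, 17 bases before it. The motif was chosen after the Golph3 sequence had been seen. Read on both strands, the full element was in 2.71% of the 11701 array genes with a promoter sequence and in 7 of the 153 members that had one (4.58%). The core, which the full element always contains, was in 26.7% of array genes and 37.3% of members. The core of the interferon-stimulated response element (GAAA, any 2 bases, GAAA) was in neither printed stretch, in 2.89% of array genes and in 5 members (3.27%). The Golgi stress response element ACGTGGC was in neither as well, in 2.97% of array genes and in 8 members (5.23%), among them Sec31a, Stx5 and Rab20.

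Values are GCRMA log2 expression values. They can be set side by side for 1 gene across arrays but not between genes, because probes differ in brightness. A gene was taken as measured in a comparison if neither of its arrays read below the array's median probe set (4.16 heparin, 4.14 peptide, 4.14 control). Of the 188 members, 159 were measured on all 3 arrays and 28 were below the median on all of them. The remaining member was Vps13c. Golph3 and Gosr1, the genes fixed to check the name of the group, were measured on every array. Kidney identity was plain too: 16 of 17 kidney markers on the array were measured on all 3 arrays, the exception being Pvalb at the lowest value. Differences of a log2 value of at least 1 (2-fold) were counted, with a second count at 1.5-fold.

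Golph3 read 6.45 on the heparin array, 8.26 on the peptide array and 8.48 on the control array. The heparin pool stood alone at the low end. Its difference from control was -2.04 (4.11-fold lower) and from peptide -1.81 (3.51-fold lower), while the peptide pool differed from control by -0.23. The lowest heparin difference from control of all 9236 measured genes was -2.08, so Golph3 lay close to the bottom of that range. Golph3 has 1 probe set on the array, so a second reading of the same transcript was not to be had. Golph3l, its paralogue, read 7.32 on all 3 arrays. In pooled tissue, fewer cells of a type and less RNA per cell cannot be told apart.

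Gosr1 read 10.10 in the heparin pool, 8.85 in the peptide pool and 8.83 in the control pool. By this probe set the heparin pool was the high one, by 1.27 against control (2.42-fold) and by 1.25 against peptide (2.38-fold). Gosr1 has 3 probe sets, and the others did not show this. One read 8.76 in heparin, 9.05 in peptide and 8.92 in control, a heparin difference of -0.17, and the third read 6.10 on all 3 arrays. The first probe set stands for Gosr1 through its heparin value, which raises its mean. On the peptide and control arrays the second is the brighter one. With the probe set brightest on control, an alternative added after the values were seen, Gosr1 was lower in heparin than in control (-0.17) and than in peptide (-0.29), and 0 members were 2-fold higher in either comparison. The direction for Gosr1 therefore rests on 1 of its 3 probe sets and on how that set was chosen. Gosr2 (membrin), its relative in ER-to-Golgi fusion, read 10.05 in heparin, 10.31 in peptide and 10.03 in control. Stx5, the syntaxin that pairs with both, read 8.73 on every array.

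**Figure D1:**
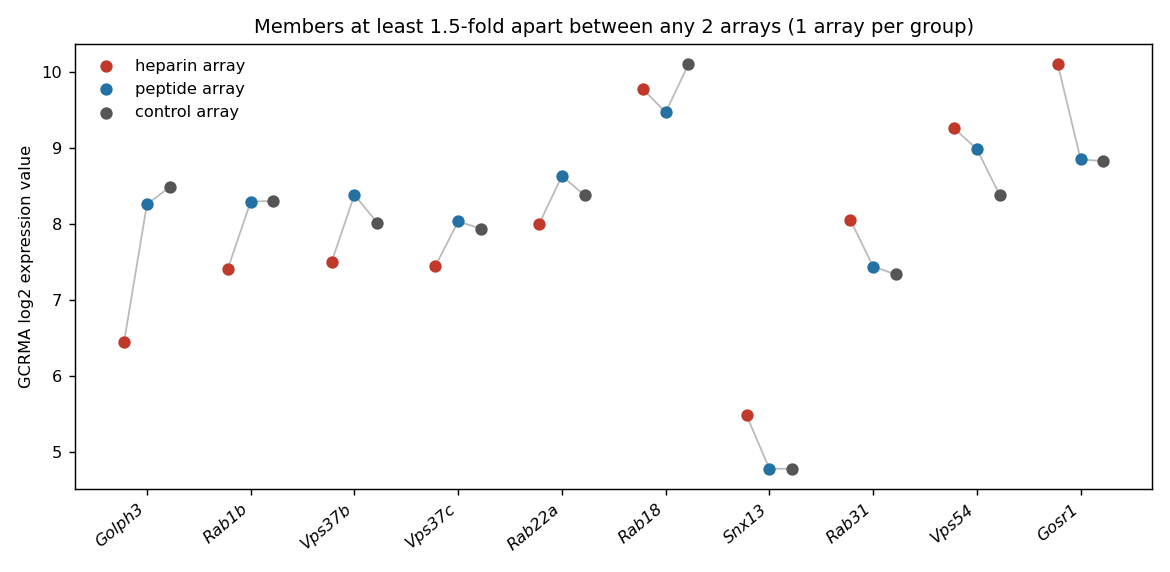
GCRMA log2 expression values of the 10 members that were measured and at least 1.5-fold apart between any pair of arrays, with heparin left, peptide in the middle and control right for each gene (1 pooled array per group, no error bars). The heparin value of Golph3 lies far below its other values, and that of Gosr1 lies above its others. By the probe sets that stand for each gene, Vps54 is the member whose heparin and peptide values both lie at least 1.5-fold above control.

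In heparin against control, 159 members were measured, of which 1 (Gosr1, by the probe set named above) was higher and 1 (Golph3) lower by 2-fold or more. Over all 9236 measured genes the same thresholds were passed by 1.06% and 0.747%. At 1.5-fold, 4 members were higher (Gosr1, Vps54, Rab31 and Snx13, beside 3.04% of all genes) and 2 lower (Golph3 and Rab1b, beside 3.37%), so the members' shares lay near or below those of all genes. The median difference was 0.00 for the members and 0.00 for all genes. Identical values made up 36.5% of members and 30.1% of all genes, and neither direction held most genes. Both medians therefore fell among identical values, and their match says little. More members were lower than higher, 67 against 34 with 58 identical, and all genes leaned the same way (44.2% lower and 25.8% higher). After quantile normalization of the arrays the members split 101 higher and 58 lower, so that lean depends on the scaling. Members identical before were then counted as higher or lower. The median of all genes moved to 0.03 as well. In no comparison was the split of all genes counted after that normalization. The spread of the members' differences was narrower than that of all genes: 85.5% lay within 0.25 of zero, against 76.6% of all measured genes. Both shares include the identical values.

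In peptide against control, 160 members were measured and 0 were 2-fold higher or lower, beside 0.723% and 0.119% of 9268 genes. At 1.5-fold 1 member was higher (Vps54, beside 2.11% of all genes) and 1 lower (Rab18, beside 0.917%). The lowest difference among the members was -0.63 and the highest 0.61. Higher by any amount were 41 members (32% of all genes) and lower 39 (28.5%), which became 51 and 106 after quantile normalization. The other 80 members had the same value on both arrays, which is 50% of members beside 39.5% of all genes. Identical GCRMA values do not establish equal abundance. Within 0.25 of zero lay 95% of members and 85.9% of all genes, shares that include the identical values. Both treatments were set against the same control array, so their differences are not independent of each other.

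In heparin against peptide, 159 members were measured, and again Gosr1 was the 1 member 2-fold higher and Golph3 the 1 member 2-fold lower. Among 9240 genes these shares were 0.281% and 0.844%. At 1.5-fold 3 members were higher (1.62% of all genes) and 5 lower (4.57%). Lower by any amount were 69 members (43.7% of all genes) and higher 38 (26.8%), which became 54 and 105 after quantile normalization. The members past 1.5-fold on the higher side were Gosr1, Snx13 and Rab31. Those on the lower side were Golph3, Rab1b, Vps37b, Rab22a and Vps37c.

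**Figure D2:**
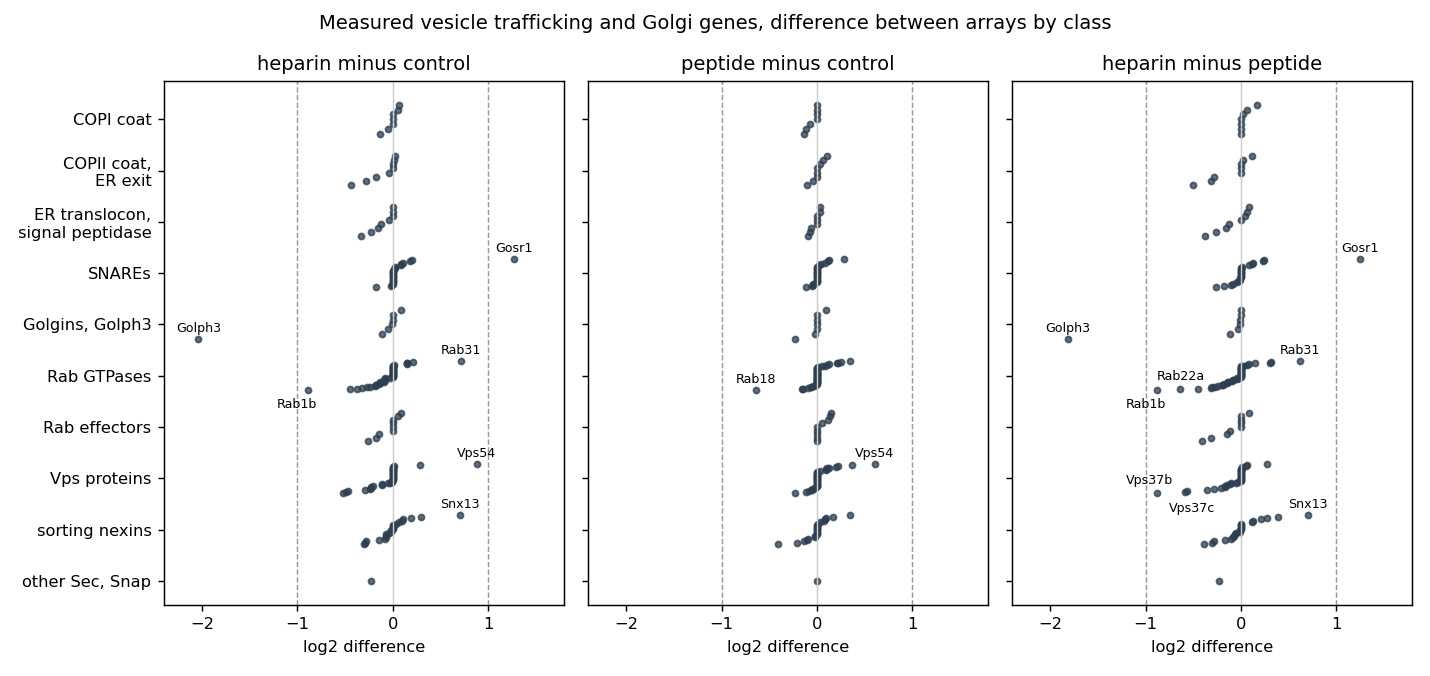
Log2 differences of the measured members in each comparison, by class of protein (1 point per gene, dashed lines at 2-fold, names for genes past 1.5-fold). Most points lie close to 0 in every class, and Golph3 (-2.04 and -1.81) and Gosr1 (1.27 and 1.25) are the points beyond the dashed lines, both in comparisons that include the heparin array.

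**Figure D3:**
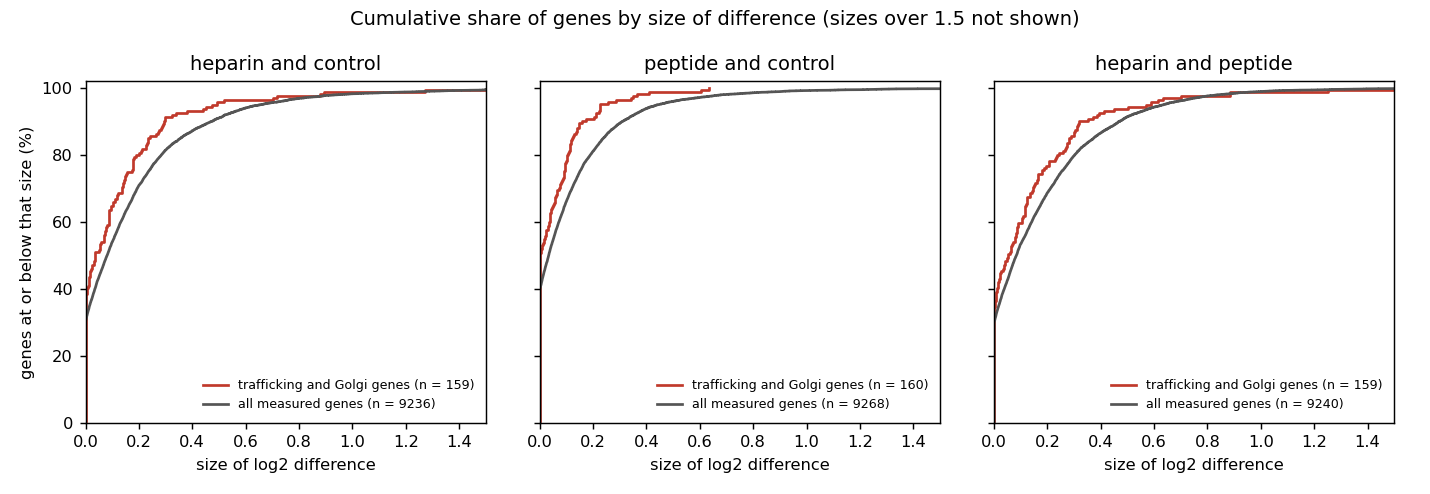
Cumulative share of measured genes (%) against the size of the log2 difference, for the members and for all measured genes, in each comparison. Identical values are included. The members' curve runs above that of all genes at small sizes, with 85.5%, 95% and 80.5% of members under 0.25 in heparin against control, peptide against control and heparin against peptide, beside 76.6%, 85.9% and 74.6% of all genes.

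At the entrance to the pathway, all 8 ER translocon and signal peptidase genes were measured, and 0 passed 1.5-fold. In heparin against control 5 were lower, 3 identical and 0 higher, with a median of -0.08. Of all genes 44.2% were lower and 25.8% higher in that comparison. Whether the lean of any class lasts after quantile normalization was not tested. Sec61b, a small subunit of the channel, read 9.75 in heparin, 10.12 in peptide and 10.09 in control, a heparin difference of -0.34. Sec63, which couples the channel to the chaperone BiP, differed by -0.23. Its 4 probe sets gave -0.44, -0.23, 0.00 and 0.24, so they did not share a direction.

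The COPII coat and its ER exit site scaffold had 8 measured members. Sec24d, a cargo-selecting subunit, read 9.07 in the heparin pool, 9.57 in peptide and 9.51 in control, a difference of -0.44 between heparin and control. Sec31a, of the outer cage, differed by -0.28 and Sec23b, of the inner coat, by -0.18. Sec13 and Sec16a differed by 0.02 each between heparin and control, and Sec24c by 0.00. Sec24b, named after its values were seen, had probe sets that disagreed: the brighter one gave -0.04 and the other 6.13 in heparin, 6.93 in peptide and 7.27 in control, a heparin difference of -1.15 (2.22-fold lower). In peptide against control the coat's differences ran from -0.10 to 0.11.

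The COPI coat had small differences in every comparison. Of its 8 members 7 were measured, and their heparin differences from control ran from -0.13 (Copg1) to 0.07 (Cope). A second, dimmer probe set of Copg1 went the other way, at 0.10. Copb1, Copg2 and Copz1 had identical values on all 3 arrays, 9.75, 8.01 and 9.49. Copa read 10.63 in heparin, 10.61 in peptide and 10.69 in control, and Copb2 9.76, 9.60 and 9.71 in the same order. Copz2, the alternative zeta subunit, was below the median on all arrays at 2.54.

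Among the golgins, the coiled-coil tethers of the Golgi, none came near the difference of Golph3. Golga2 (GM130), which holds vesicle tethers at the cis face, read 6.33 in heparin, 6.33 in peptide and 6.24 in control. Golga5 (golgin-84) differed by -0.12 between heparin and control, and Golga4 and Golgb1 (giantin) were identical on all 3 arrays at 9.25 and 8.08. Golga7, a partner of the enzyme that palmitoylates Ras, differed by -0.05.

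Of 27 SNARE genes 23 were measured, and Gosr1 was the one past 1.5-fold. In heparin against control 10 were higher, 3 lower and 10 identical, beside 25.8% of all genes higher and 44.2% lower. Snap23, the widely expressed relative of the neuronal Snap25, read 9.95 in heparin, 9.71 in peptide and 9.75 in control, but its second probe set gave a heparin difference of -0.39 beside 0.20. Snap29 differed by 0.18 and the ER SNARE Sec22b by -0.18. The largest difference in peptide against control was 0.29, that of Gosr2. Vamp8, an endosomal and exocytic SNARE, read 10.69 on every array and Stx7, of late endosomes, 10.48 in heparin and 10.50 in peptide and control.

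The Rab GTPases were the largest class, with 42 of 56 measured. In heparin against control 19 were lower, 6 higher and 17 identical, and in peptide against control 10, 9 and 23. As a share, 45.2% of the measured Rabs were lower in heparin and 14.3% higher, beside 44.2% and 25.8% of all genes. In peptide against control 28.5% of all genes were lower and 32% higher. Rab1b, which acts between ER and Golgi, read 7.41 in heparin, 8.29 in peptide and 8.30 in control. The heparin pool was low, with a difference from control of -0.89 (1.86-fold lower). Its 3 other probe sets gave -0.27, 0.00 and 0.07, so that value rests on 1 of 4. Another 3 probe sets match both Rab1b and Rab1a and were not used. Rab1a, its close paralogue, read 13.005 in heparin and 13.08 in peptide and control.

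Rab31, of trans-Golgi to endosome traffic, was the Rab with the largest positive heparin difference. It read 8.05 in heparin, 7.44 in peptide and 7.33 in control, 1.65-fold higher in heparin than in control. Its second probe set, close to the median, read 4.37 in heparin and peptide and 4.43 in control, a difference of -0.07. Rab18, found on ER and lipid droplets, was lower in both treated pools, at 9.78 in heparin, 9.47 in peptide and 10.10 in control. The peptide difference of -0.63 (1.55-fold lower) was the largest negative one among the members in that comparison.

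Rab22a, of early endosomes, read 7.996 in heparin, 8.63 in peptide and 8.37 in control, so the treated pools lay on either side of control, 1.55-fold apart. Its other measured probe set, a dimmer one, read 5.87 on every array and did not show this. Rab32, of lysosome-related organelles, read 7.98 in heparin and 8.42 in both other pools. Rab5a differed by -0.18 and the late endosomal Rab7a by 0.15 between heparin and control. A second Rab7a probe set gave -0.18, so its direction was not shared. The recycling Rab11a read 11.86 in heparin, 11.85 in peptide and 11.86 in control. A second, dimmer Rab11a probe set was lower in both treated pools, by -0.33 in heparin and -0.13 in peptide against control. Rab20 was 0.34 higher in peptide than in control and 0.15 higher in heparin. Rab8b, which serves transport to the plasma membrane, had a second measured probe set at 6.83 in heparin, 6.73 in peptide and 5.97 in control. That probe set was 1.82-fold higher in heparin and 1.69-fold higher in peptide than in control. The probe set that stands for Rab8b gave differences of 0.21 and 0.12. It read 6.82 in heparin, 6.73 in peptide and 6.61 in control, so only its control value made it the brighter by mean. Rab14, named after its values were seen, read 10.77 on all arrays by its brightest probe set, while 3 dimmer ones gave heparin differences of -0.79, -0.40 and -0.32.

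Of the 10 Rab effectors and regulators 9 were measured, and 0 passed 1.5-fold. Rab11fip3, which links Rab11 to the cytoskeleton, read 10.003 in heparin, 10.41 in peptide and 10.27 in control. Rab3ip (Rabin8), the exchange factor that activates Rab8 for cilium growth, read 8.13, 8.45 and 8.31 in the same order. Rab5if also falls under the symbol rule and read 11.90 on every array.

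The Vps proteins form several complexes. Vps54, a subunit of the GARP complex that tethers endosome-derived vesicles at the trans-Golgi, read 9.26 in heparin, 8.98 in peptide and 8.38 in control. Both treated pools lay above control, by 0.88 (1.84-fold) and 0.61 (1.52-fold), with the shared control array as the low value. Vps54 has 1 probe set. The other GARP subunits Vps51, Vps52 and Vps53, named after their values were seen, differed by less than 0.01 between any arrays, at 6.52, 5.80 and 8.70.

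In the retromer, which returns cargo from endosomes, Vps35 read 10.94 on all 3 arrays. Vps29 read 11.68 in heparin, 11.85 in peptide and 11.92 in control, and Vps26a differed by -0.23 between heparin and control. Vps26c, of the related retriever complex, was lower by the same amount in both treated pools, with a difference of -0.22 each. Vps45, which binds syntaxins before fusion, was 0.29 higher in heparin and 0.22 higher in peptide than in control.

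ESCRT sorts ubiquitin-tagged cargo into multivesicular bodies. The most negative heparin differences of the measured Vps genes were those of its members Vps37b, Vps37c and Vps4b, while others differed little or not at all. Vps37b, of ESCRT-I, read 7.50 in heparin, 8.38 in peptide and 8.02 in control, so peptide was the high pool. Its difference between heparin and peptide was -0.88 (1.84-fold lower) and between heparin and control -0.52. Vps37c read 7.44, 8.03 and 7.94 in the same order, with -0.59 and -0.49 for the same comparisons. Vps4b, the ATPase that takes the polymer apart, read 9.69 in heparin, 10.26 in peptide and 10.16 in control. Its relative Vps4a gave a heparin difference of -0.03 and Vps37a one of -0.12, while Vps36 and Vps37d gave 0.00. Vps28, also of ESCRT-I, read 9.36 in heparin, 9.47 in peptide and 9.36 in control. Among other ESCRT genes, 20 were measured, 6 higher and 5 lower in heparin than in control, with a median of 0.00. Hgs, which recognises the ubiquitin tag, read 9.40 in heparin, 10.07 in peptide and 9.90 in control, and Ubap1 and Ist1 differed by -0.32 and -0.33 between heparin and control.

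Vps13c, which moves lipids between the ER and late endosomes, read 3.19 in heparin, 5.02 in peptide and 5.14 in control. It lay below the array median in heparin and so was not counted as measured there. Set against that median instead, the control value was 0.98 higher, just under 2-fold. Its only probe set lay in the dim range of the arrays. Vps72, of a chromatin remodelling complex, is a member through its symbol only and differed by -0.29 between heparin and control.

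Of 25 sorting nexins 22 were measured. Snx13, which has a domain that binds G protein alpha subunits, read 5.48 in heparin and 4.77 in peptide and control, 1.63-fold higher in heparin than in either. Its only probe set was dim, below the 60th percentile of each array (5.86 heparin, 5.90 peptide, 5.90 control). Snx10, linked to the proton pump and to bone resorption, read 7.48 in heparin, 7.08 in peptide and 7.18 in control. Snx27, which works with retromer, and Snx14 were lower in heparin than in control, with a difference of -0.30 each. For Snx27 this rests on 1 of 3 measured probe sets, since the others gave 0.00 and -0.07. Snx8 had the largest negative peptide difference of the class, at 8.37 in heparin, 8.10 in peptide and 8.51 in control. Snx19 had the largest positive one, 0.35, at 6.57 in heparin, 6.95 in peptide and 6.60 in control. Its second probe set, close to the median, read 4.43, 5.15 and 4.37 in the same order, 1.72-fold higher in peptide than in control. Snx3 read 12.14 on all arrays. Snx18 had a second measured probe set at -0.57 in heparin against control, beside 0.10 for the brighter one.

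**Figure D4:**
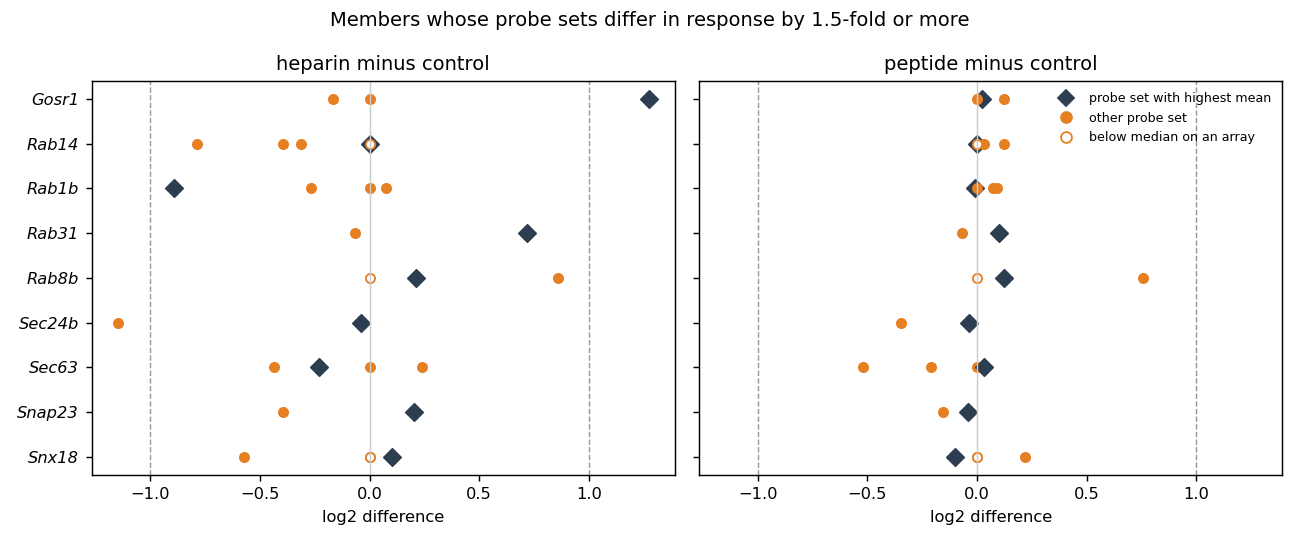
Log2 differences of every probe set of the 9 members whose measured probe sets were at least 1.5-fold apart in heparin against control or in peptide against control (diamond: probe set with the highest mean, filled circle: other probe set, open circle: below the median on an array). The Gosr1 diamond at 1.27 and the Rab1b diamond at -0.89 stand apart from their other probe sets, and the Sec24b circle at -1.15 lies below its diamond.

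Agreement between probe sets could be examined for 49 members with at least 2 measured probe sets. In heparin against control 9 of them had probe sets of opposite sign and 9 had probe sets at least 1.5-fold apart. In peptide against control these numbers were 6 and 1, and in heparin against peptide 11 and 10. The same was not counted over all genes, so these numbers cannot be read as particular to the members.

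Some members known from regulated secretion were at the bottom of the scale and some were measured. Snap25 and Rab3c were at the lowest value on all 3 arrays, as were Rab36, Rab37, Rab39a, Rab9b, Snx32, Sec14l3 and Vps25, 9 members in all. Of 14 neuronal and neuroendocrine markers 2 were measured, Nefm and Uchl1, and 8 were at the lowest value, among them Syn1, Syt1, Chga and Th. Rab3a read 7.71 in heparin and 7.56 in peptide and control. Vamp2, Vamp1, Rab27a and Rab27b, also genes of regulated exocytosis, were measured and had identical values on all 3 arrays. These 5 were named after their values were seen.

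Further genes of the same pathway, in 7 lists outside the symbol rule, gave 238 measured genes in heparin against control. Of these 1 was 2-fold higher and 0 were 2-fold lower, beside 1.06% and 0.747% of all measured genes. The higher one was Tpst1, the Golgi enzyme that sulfates tyrosines, including those of chemokine receptors. It read 7.17 in heparin, 6.91 in peptide and 6.14 in control, 2.04-fold and 1.70-fold higher in the treated pools. These values are from the brighter of its 2 probe sets. For this and the other genes of these lists, further probe sets were not compared. In peptide against control 0 passed 2-fold in either direction, beside 0.723% higher and 0.119% lower among all genes. In heparin against peptide 0 were higher and 2 lower, beside 0.281% and 0.844% of all genes. Those were Arl2, a regulator of tubulin folding (4.78 in heparin, 5.86 in peptide, 5.58 in control), and Arfgap3, which turns off Arf1 on the Golgi (7.89, 8.93 and 8.45 in the same order). For both, peptide lay above and heparin below control. Arl2 was dim, below the 60th percentile of each array.

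The Arf family and its regulators, 28 genes all measured, had a median heparin difference from control of -0.06 with 18 lower and 6 higher. The p24 proteins and cargo receptors had a median of -0.07, with 24 of 35 lower and 8 higher. Of all genes 44.2% were lower and 25.8% higher, and these lists were not split again after quantile normalization. Arf6, of the plasma membrane and endosomes, read 8.91 in heparin, 9.63 in peptide and 9.65 in control. Clathrin, adaptor and dynamin genes, tethering complexes, SNARE and Rab machinery, ESCRT genes and Golgi enzymes each had a median of 0.00 in that comparison. Those medians fell among genes with identical values. Rabgef1, the exchange factor for Rab5, differed by -0.69 and Myo5b, the motor of Rab11 vesicles, by -0.64. The endocytic receptors Lrp2 (megalin) and Cubn (cubilin) differed by 0.08 and -0.17. Of the SNAREs that join Gosr1 or Gosr2, named after their values were seen, Bet1 differed by -0.45, Bet1l by 0.06 and Ykt6 by -0.03 between heparin and control.

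Other features of the pools moved beside these values. Of 8 measured platelet and red cell markers 5 were at least 1.5-fold lower and 1 was that much higher in heparin than in control. Among all genes these shares were 3.37% and 3.04%. In peptide against control 3 of the 8 were that much lower and 0 that much higher, beside 0.917% and 2.11% of all genes. The summed unlogged level of the 12 such markers on the array was 26990 in heparin, 30434 in peptide and 32417 in control. Most of that sum is haemoglobin Hbb, at 14.63 in heparin, 14.80 in peptide and 14.86 in control. The marker furthest from control was the platelet tubulin Tubb1, at 5.46, 5.73 and 6.95 in the same order, and Gypc was the higher one, by 1.00. Epb42 and Gp9 were at the lowest value. Of 15 measured leukocyte markers 0 passed 1.5-fold, with sums over 25 genes of 15853, 18843 and 16236 in the same order and Cd3d, Cd4, Cd79b, Ms4a1 and Cd163 at the lowest value. The leukocyte sum follows S100a8 and S100a9, which differed from control by -0.13 and -0.08 in heparin and by 0.38 and 0.23 in peptide. The macrophage genes Cd68 and Cd14 were higher in heparin than in control, by 0.48 and 0.39. Other myeloid genes of the list did not follow, with Adgre1 at -0.14, Csf1r at 0.02 and Itgam at 0.00. Over the 15 measured leukocyte markers 6 were higher, 4 lower and 5 identical. Neuronal markers summed to 516 in heparin, 576 in peptide and 415 in control, nearly all of it from Nefm (8.77, 8.95 and 8.38 in the same order). Of the 16 measured kidney markers 6 were higher and 8 lower in heparin than in control, with a median of -0.02. At the ends of that list were Calb1 of the connecting tubule, 3.56-fold lower, and Podxl of podocytes, 1.67-fold higher. Interferon-stimulated genes had medians of 1.29 in heparin and 0.99 in peptide against control. For beta-actin, the excess of the 3′ over the 5′ probe set, a sign of RNA quality, was 2.95 in heparin, 2.34 in peptide and 2.33 in control. For Gapdh it was 0.32, 0.37 and 0.36 in the same order, and for hexokinase 2.179, 2.282 and 2.179, so beta-actin was the control gene that set heparin apart. The part of these features in the values of Golph3, Gosr1 and the other members was not tested.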

How the data were processed

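Total RNA of 3 kidneys per group was pooled, and biotin-labelled cRNA from 6 µg was hybridised to 1 array per group, per the labels' protocols. The authors deposited log2 expression values per probe set, made with GCRMA per the submitters' processing notes. The sources used here do not state its version or settings, or how arrays were normalized together. The lowest value, 2.18, was shared by all 3 arrays, and 29.5% to 30.9% of probe sets lay within 0.01 of it. Arrays have no read depth, and their number, 1 per group, limits the precision.

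Values were used as deposited, with Python 3.11.15, pandas 2.3.3 and numpy 2.4.6. Of 31099 probe sets, the platform annotation named 20832 by 1 symbol and 436 by several, and left 9831 unnamed. Of the 188 members 186 had a gene ID in the RefSeq table of GRCr8, 0 of them under another symbol. Sequences are RefSeq's, matched by gene ID for 153 members. Log2 differences were taken between arrays. With 1 array per group no test was made. The counting was tested on simulated data.

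The members and lists were chosen with earlier results of these data known. Members were sorted into 10 classes by symbol pattern. Rab3il1 and Snap91 were moved to other classes after the list of symbols was seen. The rule for naming took, per comparison, the 10 most positive and the 10 most negative differences among measured members. Per class it took the 3 with the highest mean and, in each comparison, the 3 of largest size. The rule also took the COPI, Golph3 and Gosr genes and members at the lowest value. It took members whose probe sets differ in sign with any past 1.5-fold, and the 3 largest differences of each further list. Not every gene that the rule took is named here: Rab9a, Rab21, Vps11, Cyth1, Epn1, Exoc5 and Trappc6a are among those left out. Genes named beyond the rule, such as Stx5, Golgb1, Rab5a, Vps26a, Vps28, Vps4a, Vps72, Sec24c, Lrp2 and Cubn, were chosen after their values were seen.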

Additional observations from a re-analysis of the deposited data

How the results depend on the processing

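No paired analysis was possible because each group had 1 array. The medians stayed within 0.1 of their value under every alternative run, and the counts changed as follows. By the main setting those medians fell among members with identical values, so their steadiness says little. In heparin against control, a filter at the 40th percentile or none gave 2 members at least 2-fold lower (Golph3 and Vps13c) in place of 1. Averaging the probe sets of each gene, or taking the median difference of the measured ones, left 0 higher. In heparin against peptide the same filters gave 2 lower, and the same summaries left 0 higher, since the value of Gosr1 rests on 1 probe set. The probe set brightest on the control array, an alternative chosen after seeing the data, also left 0 higher in both comparisons. At 1.5-fold the counts were 4 higher and 2 lower for heparin against control, 1 and 1 for peptide against control, and 3 and 5 for heparin against peptide. A filter at the 60th percentile, quantile normalization, 32 added to the unlogged values, centring on the median of all genes and leaving out 3 classes of members kept all 2-fold counts. Quantile normalization moved the median of all genes by 0.03 in heparin against control, and the members' by as much. Among named members past 1.5-fold, the sign turned in another probe set for Gosr1 (-0.17 against control and -0.29 against peptide), Rab1b (0.074) and Rab31 (-0.068), in comparisons with heparin. The probe set brightest on control turned Gosr1 in the same way. Smaller differences turned too: probe sets had opposite signs in 9, 6 and 11 of 49 members in heparin against control, peptide against control and heparin against peptide. What makes those probe sets differ was not tested, and such disagreement was not counted over all genes. Of 2066 values under other settings, for members that the naming rule took, 2038 moved by less than 1.5-fold. No direction past 1.5-fold turned among those. Another 22 moved by more and 6 reversed. Many of these values could not move. A filter leaves the difference of a kept gene as it is, and centring subtracted a median of 0. A gene with 1 probe set also has no other summary. The 2038 is therefore no measure of how firm the differences are. With 1 array per group, no difference here has a replicate check.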
